A study of Mus musculus with 11 samples.

Results

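The Ifit genes (interferon-induced proteins with tetratricopeptide repeats) were followed in BV2 cells, a transformed mouse microglial line, after exposure to amino-terminal fragments of human apolipoprotein E. The 5 genes were Ifit2, Ifit3, Ifit1bl1, Ifit3b and Ifit1bl2, out of 36529 gene rows counted in each sample, and a sixth annotated family gene, Ifit1, is described beside them. They were selected by family name, by people who already knew how the genes moved in these samples, so the differences between treated and control cells are given as descriptions with standard errors and no p-value. No threshold entered the selection. Of the 5 genes, 3 had reads and passed the filter on low counts in every comparison, while Ifit3b and Ifit1bl2 were at 0 in every sample.

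The study asked how nApoE4(1–151) changes microglial gene expression, with nApoE3(1–151), which differs from it at a single residue, as the comparison fragment. Both fragments cover residues 1 to 151, carry a histidine tag and were given at 25 µg/ml for 5 h. There were 3 samples treated with nApoE4 and 3 untreated controls of that experiment, then 2 samples treated with nApoE3 and 3 untreated controls of their own, 11 in all. All came from 1 cell line of C57BL/6 origin, the same in all groups. The labels call the control cells untreated and name PBS as the vehicle. The study's methods instead describe fragments diluted in conditioned medium, with an equal amount of that medium given to controls. What the controls received is therefore uncertain. No control sample was shared, so fragment and experiment cannot be told apart, and the labels do not say whether the samples of a group were separate cultures. The study's text speaks of averaged independent trials without saying what was separate in each, so p-values measure the spread between these samples, part of which may be technical.

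Reads assigned to genes numbered 39732710 to 44162511 per sample in the nApoE4 experiment and 55809688 to 69768666 in the nApoE3 experiment. Microglia and macrophage markers summed to between 2619 and 4025 CPM (counts scaled to library size) in every sample. The sum was 3616 to 4025 CPM in the controls of nApoE4 and 2619 to 2670 CPM in those of nApoE3. Of the 13 markers, 11 had counts in all 11 samples. P2ry12, which lies wholly inside the Med12l gene, was at 0, and Aif1 had at most 10 counts in a sample. Cx3cr1 averaged at most 0.578 CPM in any group. Trem2 averaged 22.0 ± 34.8 CPM (SD, n = 3) in the controls of nApoE4 and at most 2.99 CPM in the other groups. Sums over the 5 markers each of neurons, astrocytes, oligodendrocytes, fibroblasts and T cells ranged from 0.0682 CPM for fibroblasts to 24.7 CPM for oligodendrocytes, with Mog and Cd8a at 0. The astrocyte sum was 6.97 to 7.94 CPM with nApoE4 and 5.66 to 5.79 CPM with nApoE3, against 1.39 to 1.88 CPM in the controls. The neuron sum was 5.33 to 6.47 CPM with nApoE4 and at most 2.58 CPM in every other sample. Slc1a2 made up most of the astrocyte rise, from 1.02 to 6.47 CPM on average with nApoE4 and from 1.05 to 4.21 CPM with nApoE3. Slc1a3 rose less, Gfap and Aqp4 averaged at most 0.0504 CPM in any group, and Aldh1l1 did not rise. Tubb3 made up most of the neuron rise, from 2.14 to 5.65 CPM with nApoE4. The remaining neuron markers averaged at most 0.25 CPM in any group. The part of these markers in the results was not tested.

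IFIT proteins are among the most abundant products of the interferon response. They are built from tetratricopeptide repeats, bind viral RNA and hold back its translation, and Ifit1 recognises the cap of RNA that lacks 2'-O methylation. Ifit2 and Ifit3 can associate with each other. Transcription of the family is driven by type I interferon through transcription factors that include STAT2 and IRF9, and also directly by IRF3 in cells that sense foreign nucleic acid, and both act at interferon-stimulated response elements, in which GAAA repeats at a fixed spacing.

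The promoters are shown because they carry these repeats and because they show which family genes are close copies. A window of 250 bases before the RefSeq start site (GRCm38.p6, chromosome 19) was searched for 2 copies of GAAA separated by 2 bases, on either strand, so that the match reads TTTC on the other strand. Matches are in capitals below, and the sequences run 5′ to 3′ in the direction of the named gene.
Ifit3, chr19:34583279-34583528, plus strand: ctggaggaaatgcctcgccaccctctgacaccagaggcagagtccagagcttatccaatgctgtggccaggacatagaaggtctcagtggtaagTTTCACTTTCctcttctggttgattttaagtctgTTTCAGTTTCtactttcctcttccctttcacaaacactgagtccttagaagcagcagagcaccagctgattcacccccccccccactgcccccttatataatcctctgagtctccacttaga
Ifit3b, chr19:34607707-34607956, plus strand: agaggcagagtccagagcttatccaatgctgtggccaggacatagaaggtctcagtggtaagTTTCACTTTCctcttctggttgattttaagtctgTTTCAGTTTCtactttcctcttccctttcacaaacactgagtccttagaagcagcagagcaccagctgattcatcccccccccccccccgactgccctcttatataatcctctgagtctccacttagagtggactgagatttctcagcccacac
Ifit1bl1, chr19:34601969-34602218, minus strand: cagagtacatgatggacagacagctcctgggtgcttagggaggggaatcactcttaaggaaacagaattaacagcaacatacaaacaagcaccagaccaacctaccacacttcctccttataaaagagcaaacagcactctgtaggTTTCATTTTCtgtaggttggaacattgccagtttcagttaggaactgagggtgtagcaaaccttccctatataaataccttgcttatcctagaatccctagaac
Between Ifit1bl2 and Ifit1, chr19:34640744-34640870, plus strand: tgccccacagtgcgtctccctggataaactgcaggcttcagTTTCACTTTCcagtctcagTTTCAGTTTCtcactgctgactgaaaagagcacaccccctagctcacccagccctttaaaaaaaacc

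Ifit3 and Ifit3b each held 2 matches, the first beginning 156 and 188 bases before the start site and the second 122 and 154 bases before it. The letters of both matches were the same in the 2 genes, and over the 218 bases that aligned, 216 were identical. Ifit1 and Ifit1bl2 point away from each other, with the Ifit1 start site 146 bases from the first listed start site of Ifit1bl2. The 2 matches between these sites, at bases 34640785 to 34640794 and 34640804 to 34640813, belong to both windows. The window before the second listed start site of Ifit1bl2 (base 34629811) held no match. Ifit1bl1 held 1 match, 104 bases before its first listed start site (base 34601968), and 1 match 23 bases before its second (base 34599427). Both sites lie inside its RefSeq span, whose 5′ end is at base 34662981. No window before that end was searched. Neither of the windows of Ifit2 held one, which says only that these letters were not in them. Among 27025 genes with such a window, 3.46% held at least 1 match and 0.211% held 2 or more.

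The coding sequences showed the same close pair. Ifit3 and Ifit3b were identical at 1201 of 1212 coding bases (99.1%), and Ifit1bl1 and Ifit1bl2 at 1236 of the 1401 bases of the shorter (88.2%). Ifit2 was identical to Ifit3 at 64.4% of the bases of the shorter coding sequence. For reads of 75 bases, 41.1% of the windows along the Ifit3 transcript occurred in a transcript of another gene, mainly Ifit3b, compared with 1.98% for Ifit1bl1 and 0 of 3744 windows for Ifit2. Reads from those shared stretches cannot be told apart between Ifit3 and Ifit3b, so the Ifit3 counts are uncertain to that extent.

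The genes lie together on chromosome 19 (RefSeq, GRCm38.p6). Ifit2 spans bases 34550550 to 34576534 and Ifit3 bases 34583119 to 34588982, both on the plus strand, and neither overlaps another counted gene. Ifit1bl1 spans 34592888 to 34662981 on the minus strand, or 70094 bases, of which the GENCODE annotation places exons only between 34592891 and 34601956. Ifit3b (34607530 to 34613403, plus), Ifit1bl2 (34617046 to 34640827, minus) and Ifit1 (34640889 to 34650009, plus) lie wholly inside that span. The printed windows of Ifit3, Ifit3b and Ifit1bl1, and the stretch between Ifit1bl2 and Ifit1, fall inside these RefSeq spans but in no GENCODE exon of the family.

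**Figure D1:**
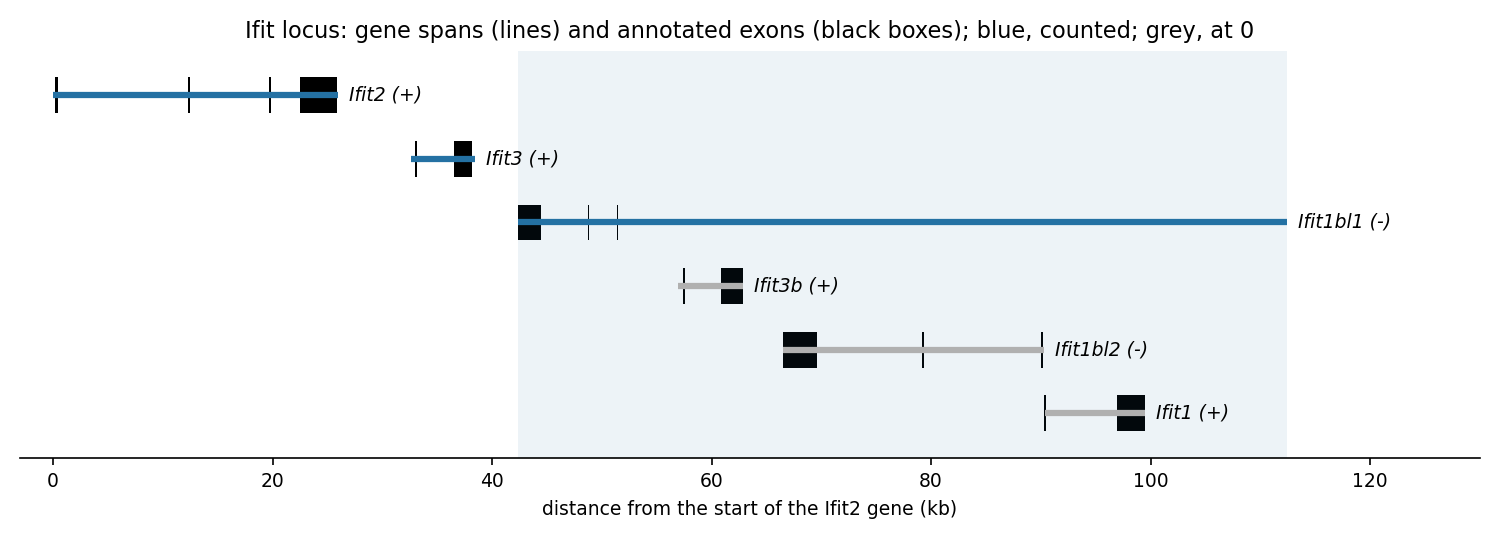
Map of the Ifit locus by distance in kb from the start of the Ifit2 gene, with RefSeq gene spans as lines, GENCODE exons as black boxes, strands in parentheses and the Ifit1bl1 span shaded. Ifit3b, Ifit1bl2 and Ifit1 (grey, at 0 in all samples) lie wholly within the 70094 bases of Ifit1bl1, while Ifit2 and Ifit3 lie outside it.

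Ifit3b, Ifit1bl2 and Ifit1 had 0 counts in all 11 samples, which allows up to 3 counts per sample, or 0.043 to 0.0755 CPM, for counting error only. The same was true of most genes so placed. Among protein-coding genes wholly inside another counted gene, 132 of 134 with a host on the same strand (98.5%) and 329 of 343 with hosts on the opposite strand only (95.9%) were at 0 in every sample. Among 14234 protein-coding genes that overlapped no counted gene, 18.1% were at 0. Their zeros are therefore not read here as absence of the transcripts. Of the Ifit1bl1 span, 55.3% is shared with those 3 genes and 31317 bases are under Ifit1bl1 alone. That remainder includes 12972 bases beyond the end of Ifit1, outside every annotated Ifit exon, so the Ifit1bl1 counts may hold reads from more than its exons.

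**Figure D2:**
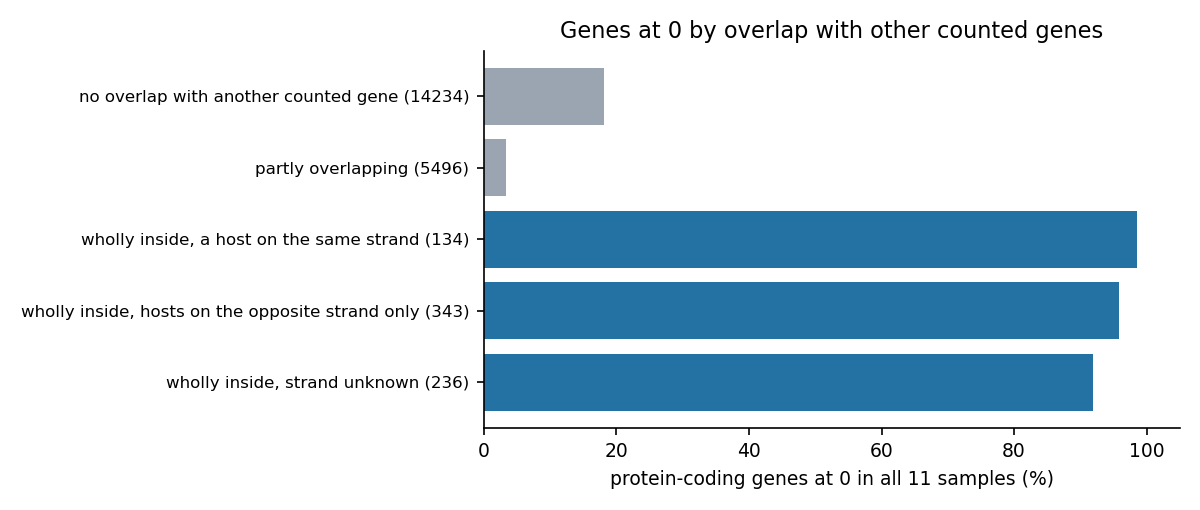
Percent of protein-coding genes with 0 counts in all 11 samples, by how the RefSeq span overlaps other counted genes, with the number of genes in parentheses. Genes wholly inside another gene were at 0 in 91.9% to 98.5% of cases, against 18.1% of genes with no overlap.

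Of the 3 members with reads, Ifit2 had the most counts in every sample. The levels of the other family genes are unknown. It had 407, 396 and 422 counts in the controls of nApoE4 and 3816, 3589 and 3717 with nApoE4, and 1858, 1610 and 1634 in the controls of nApoE3 and 31448 and 28605 with nApoE3. In CPM, with TMM factors, this was 9.32 ± 0.437 and 90.3 ± 3.52 CPM (SD, n = 3) in the nApoE4 experiment. In the nApoE3 experiment it was 27.1 ± 1.28 CPM (SD, n = 3) in the controls and 504 ± 23.0 CPM (SD, n = 2) after treatment. The 4 groups did not overlap, and replicates lay close together. Separation of all 4 groups was not counted over all genes. Between pairs of groups it was common. Every treated sample was above every control for 30.6% of genes tested with nApoE4 and 34.3% with nApoE3. All controls of nApoE3 were above all controls of nApoE4 for 36.2%. In bulk RNA, a change in the share of responding cells and a change in RNA per cell cannot be told apart.

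Ifit3, a partner of Ifit2, was low in untreated cells. Counts were 24, 12 and 9 in the controls of nApoE4, 579, 509 and 541 with nApoE4, 75, 83 and 134 in the controls of nApoE3, and 6800 and 6081 with nApoE3. The means were 0.349 ± 0.203 and 13.2 ± 0.780 CPM (SD, n = 3) in the nApoE4 experiment, and 1.59 ± 0.666 CPM (SD, n = 3) and 108 ± 6.23 CPM (SD, n = 2) in the nApoE3 experiment. All 4 groups were again separate, with 1 control library in each experiment standing above its neighbours.

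Ifit1bl1, a member of the Ifit1 subgroup, had the fewest reads of the 3 summed over the samples. Its counts were 20, 9 and 11 in the controls of nApoE4 and 77, 60 and 84 with nApoE4, followed by 22, 27 and 59 in the controls of nApoE3 and 2015 and 1801 with nApoE3. In CPM this was 0.308 ± 0.152 and 1.80 ± 0.335 (SD, n = 3), then 0.594 ± 0.382 (SD, n = 3) and 32.0 ± 1.86 (SD, n = 2). The 2 control groups overlapped, and both treated groups lay above them.

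For all 3 genes the order of the group means was the same, from the controls of nApoE4 through the controls of nApoE3 and nApoE4 to nApoE3. Only the 2 control groups of Ifit1bl1 were neighbours whose values overlapped.

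**Figure D3:**
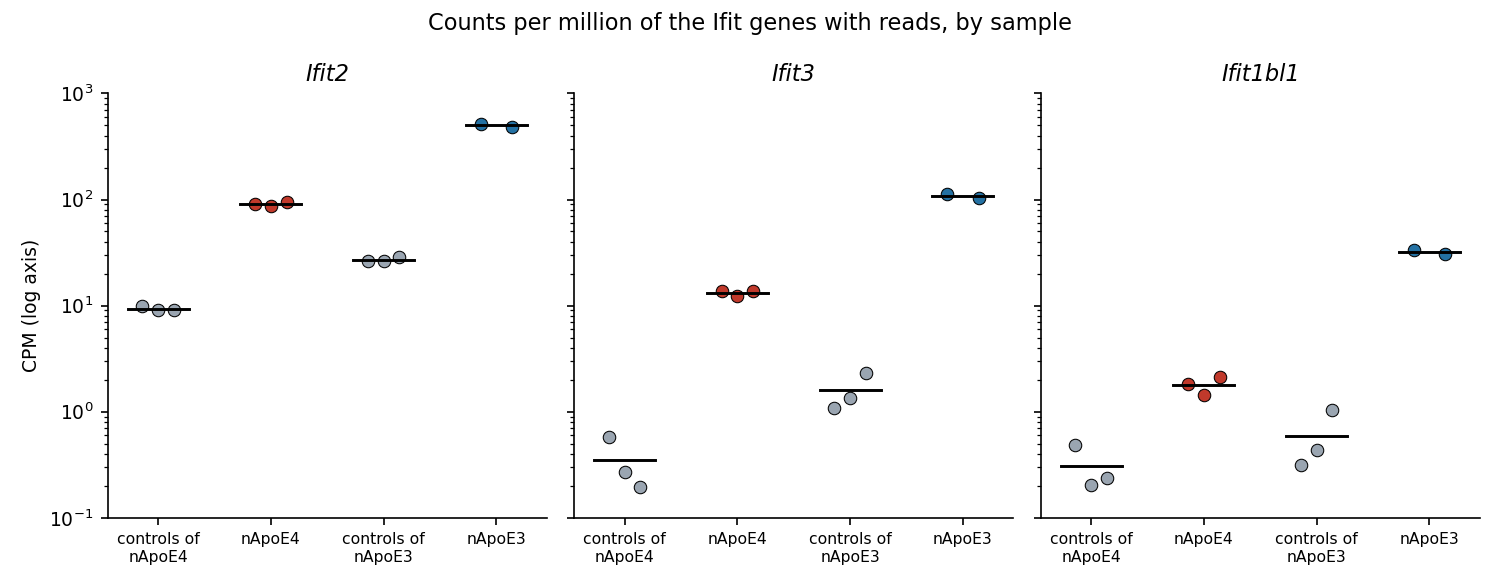
CPM of Ifit2, Ifit3 and Ifit1bl1 in each of the 11 samples on a log axis, with a point for each sample and a line at the group mean. Treated samples lie above all controls for each gene, nApoE3 samples lie highest (504, 108 and 32.0 CPM on average), and control points of Ifit3 and Ifit1bl1 are the most scattered.

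After nApoE4, Ifit3 was 38.8-fold, Ifit2 9.84-fold and Ifit1bl1 5.93-fold above the controls in the fitted model. On the log2 scale the differences were 5.28 ± 0.232 (SE), 3.30 ± 0.0665 and 2.57 ± 0.312. Every nApoE4 sample was above every control for the 3 genes, as it was for 30.6% of the 14240 genes tested. They ranked 76, 252 and 410 from the top of those genes. These values belong to the contrasts known when the family was selected and nothing is read from them.

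After nApoE3, the differences were 6.17 ± 0.119 for Ifit3, 5.85 ± 0.173 for Ifit1bl1 and 4.27 ± 0.0411 for Ifit2 (log2, SE), or 72.1-, 57.6- and 19.3-fold. Ifit1bl1 took the place below Ifit3 that Ifit2 held after nApoE4. Every nApoE3 sample was above every control for the 3 genes, compared with 34.3% of the 14817 genes tested. Without the third control of nApoE3, the difference of Ifit1bl1 was 6.48.

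The difference between the fragments was tested in 1 model of all 11 samples, as the effect of nApoE4 minus the effect of nApoE3, with p-values from edgeR's quasi-likelihood test adjusted (Benjamini-Hochberg) over 15287 genes. The 2 effects are measured against separate controls. Both were known when the family was selected, so the p-values and ranks of the members are not independent of that choice. Ifit1bl1 had a difference of −3.27 ± 0.607 (log2, SE; adjusted p = 0.00136), the 38th lowest of all genes, and Ifit2 of −0.98 ± 0.0859 (adjusted p = 3.32e-06). The Ifit1bl1 value was −3.91 without the third control of nApoE3 and −2.83 (adjusted p = 0.0191) without the first control of nApoE4. In total 13.9% of genes were called lower and 14.4% higher in this comparison. For Ifit3 the difference was −0.89 ± 0.490 (adjusted p = 0.205). Its approximate 95% interval, from the SE and a normal quantile, was −1.85 to 0.0695, which holds both 0 and the value of Ifit2. With so few samples such an interval is too narrow. The Ifit3 difference reached −1.27 (adjusted p = 0.0179) without the third control of nApoE3 and −0.35 without the first control of nApoE4.

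The untreated cells of the experiments were not alike. Ifit2 was higher in the controls of nApoE3 than in those of nApoE4 by 1.55 ± 0.0675 (log2, SE; edgeR adjusted p = 8.86e-07) and Ifit3 by 2.20 ± 0.444 (adjusted p = 0.00241). All controls of nApoE3 were above all controls of nApoE4 for these 2 genes, as for 36.2% of the 14249 genes tested, of which 34.4% were called higher and 34.9% lower. Ifit1bl1 differed by 0.95 ± 0.537 (edgeR adjusted p = 0.148, approximate 95% interval −0.104 to 2.0, also from a normal quantile). Its difference was 0.30 without the third control of nApoE3 and 1.41 without the first control of nApoE4. Because the baseline differed, the levels after treatment and the differences from controls separate the fragments to unequal degrees. The mean CPM with nApoE3 was 17.8 times that with nApoE4 for Ifit1bl1, 8.18 times for Ifit3 and 5.58 times for Ifit2.

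Within each control group, 1 library stood above the others for Ifit3 and Ifit1bl1 and hardly for Ifit2. The third control of nApoE3 had 2.74 times the Ifit1bl1 CPM and 1.93 times the Ifit3 CPM of the mean of the other 2 controls, but 1.08 times for Ifit2. In that library 16 of 17 other antiviral genes with at least 1 CPM on average in controls were above the mean of the other 2, with a median deviation of 0.226 (log2), against −0.0328 over all genes. The first control of nApoE4 had 2.18 times the Ifit1bl1 CPM and 2.48 times the Ifit3 CPM of its neighbours, from 20 and 24 counts, with 12 of the 17 genes above and a median deviation of 0.036.

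Ratios between members within a library do not depend on library size. For every 100 Ifit2 counts there were 15.2, 14.2 and 14.6 Ifit3 counts with nApoE4 and 21.6 and 21.3 with nApoE3, and between 2.13 and 8.2 in the controls. Treated libraries were thus richer in Ifit3 relative to Ifit2 than any control. For every 100 Ifit3 counts there were 13.3, 11.8 and 15.5 Ifit1bl1 counts with nApoE4 and 29.6 in both nApoE3 samples, against 75 to 122 in the controls of nApoE4 and 29.3 to 44.0 in the controls of nApoE3. The Ifit1bl1 share relative to Ifit3 was therefore lowest with nApoE4, although the control ratios of that experiment rest on 9 to 24 counts a gene.

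**Figure D4:**
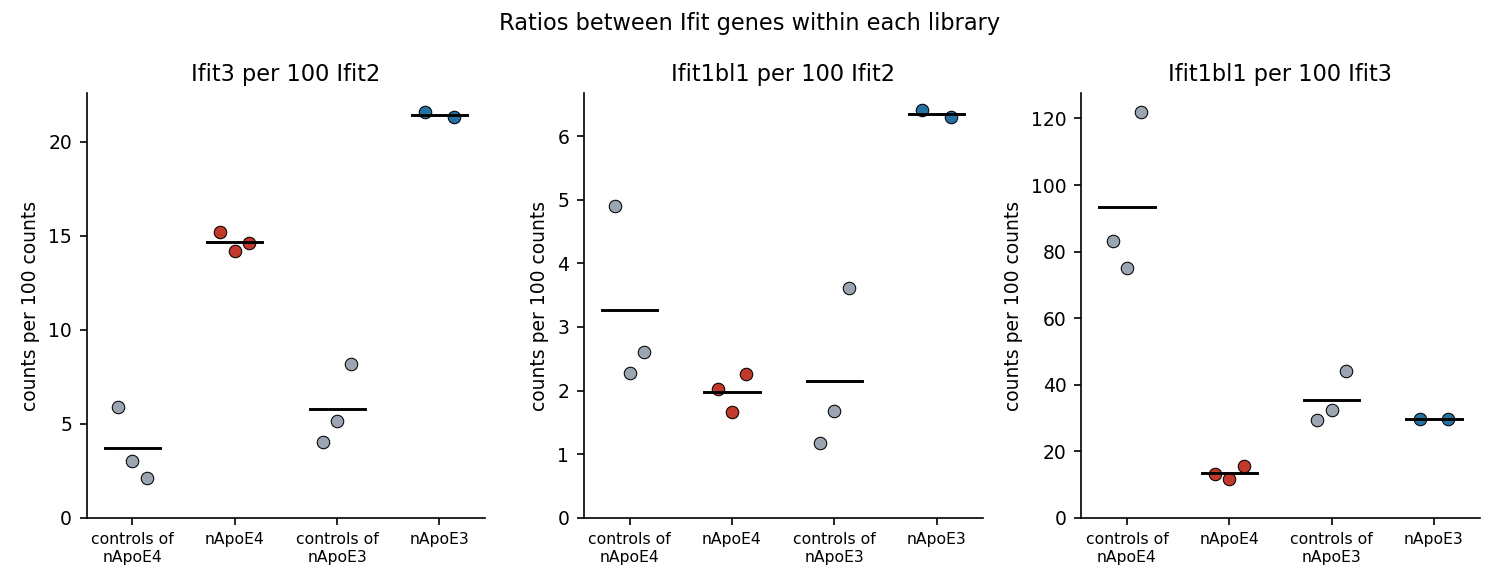
Ratios of counts between pairs of Ifit genes in each library, as counts per 100 counts of the second gene, with a point for each sample and a line at the group mean. Ifit3 per 100 Ifit2 is higher in the treated samples (14.2 to 21.6) than in the controls (2.13 to 8.2), and Ifit1bl1 per 100 Ifit3 is lowest with nApoE4 (11.8 to 15.5).

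Ifit2 made up 93.6 ± 2.88% and 92.7 ± 2.91% of the member counts in the controls of nApoE4 and nApoE3 (SD, n = 3). It made up 85.8 ± 0.508% with nApoE4 (n = 3) and 78.3 ± 0.206% with nApoE3 (n = 2). The Ifit3 share was 12.6 ± 0.361% with nApoE4 and 16.8 ± 0.158% with nApoE3. Per kilobase of annotated exon, a scale that corrects for length alone, Ifit2 was at 128 ± 5.86, Ifit3 at 62.0 ± 3.57 and Ifit1bl1 at 14.2 ± 0.822 CPM per kb with nApoE3 (SD, n = 2). With nApoE4 the same order held, at 23.0 ± 0.897, 7.58 ± 0.447 and 0.795 ± 0.148 CPM per kb (SD, n = 3). Reads shared with Ifit3b may be missing from the Ifit3 value, and the Ifit1bl1 value may hold reads from outside its exons, so the sizes of these gaps are uncertain.

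The genes of type I interferon signalling, which act upstream of the family, moved with it in both experiments. Of 14 genes tested, 11 rose and 1 fell after nApoE4, with a median of 2.02 (log2) against 0.00128 over all genes, where 28.6% were called higher and 28.6% lower. After nApoE3, 12 rose and 2 fell, with a median of 2.22 against −0.00261, where 33.1% of all genes were called higher and 34.6% lower. This list and those below were drawn up with earlier results of these data known, so their counts are not independent evidence of direction. Ifnb1, the ligand, went from 0.0296 to 1.00 CPM with nApoE4 (4.93 ± 0.506, log2, SE; edgeR adjusted p = 2.43e-05) and from 0.104 to 1.24 CPM with nApoE3 (3.63 ± 0.341, adjusted p = 1.11e-06), on at most 75 counts in a sample.

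Of the receptor chains, Ifnar1 rose by 0.30 and 0.18 (log2) with nApoE4 and nApoE3, and Ifnar2 by 0.80 and 0.42. The kinase Tyk2 rose by 1.44 and 1.16, while Jak1 rose by 0.20 with nApoE3 (edgeR adjusted p = 3.65e-06) and stood at 0.02 with nApoE4 (adjusted p = 0.801), and the difference between them passed the test (−0.19, adjusted p = 0.0348). Of the transcription factors that interferon engages at such promoters, Stat2 rose by 2.27 and 2.61 and Irf9 by 2.42 and 2.35.

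Irf3, which can act on these promoters before any interferon is made, was at −0.09 with nApoE4 (edgeR adjusted p = 0.355) and fell by 0.09 with nApoE3 (adjusted p = 0.028). With DESeq2, or without the first or second control or either nApoE3 sample, 1 gene of the list and not 2 was called lower after nApoE3. Irf1 rose by 3.71 with nApoE4 and 2.44 with nApoE3, and Irf7, which amplifies the response, by 3.89 and 5.33. Usp18, a brake on the receptor, rose by 2.50 and 4.15 and the inhibitor Socs1 by 3.35 and 3.05, whereas the phosphatase Ptpn6 fell by 0.76 and 0.52. Between the fragments, 2 of the 14 genes were called higher, close to the 14.4% of all genes, and 6 lower, against 13.9% of all genes. The larger of these were Usp18 (−1.65, edgeR adjusted p = 2.7e-06), Irf7 (−1.44, adjusted p = 0.000133) and Irf1 (1.26, adjusted p = 6.52e-07), so Irf1 went the other way from Ifit2 and Ifit1bl1. Jak1, Stat2 and Ptpn6 were also among those lower and Ifnar2 was higher, each by less than 0.5 of a log2 unit.

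Of 9 sensors of foreign RNA and DNA tested, 6 rose and 2 fell after nApoE4 and 7 rose and 2 fell after nApoE3, with medians of 0.97 and 2.13 (log2), against 0.00128 and −0.00261 over all genes. The shares of all genes called were 28.6% higher and 28.6% lower after nApoE4, and 33.1% higher and 34.6% lower after nApoE3. Zbp1, a Z-form nucleic acid sensor, rose most, by 7.57 ± 0.345 and 6.66 ± 0.187 (SE), from at most 0.157 CPM on average in controls. Ddx58 (RIG-I) rose by 3.16 and 4.12, Ifih1 (MDA5) by 3.05 and 3.46 and their relative Dhx58 by 2.44 and 3.97. The 2 that fell were adaptors, Mavs by 0.33 and 0.62 and Tmem173 (STING) by 0.82 and 0.36. Between the fragments 7 of the 9 were called lower and 1, Mavs, higher, against 13.9% and 14.4% of all genes.

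All 22 other interferon-induced antiviral genes tested rose after each fragment, with medians of 2.74 after nApoE4 and 4.42 after nApoE3 (log2), against 0.00128 and −0.00261 over all genes, of which 28.6% and 33.1% were called higher. Rsad2 (viperin) rose by 6.75 ± 0.099 and 7.29 ± 0.107, its neighbour Cmpk2 by 6.52 ± 0.123 and 6.79 ± 0.0975, and Rtp4 by 6.38 ± 0.21 and 6.05 ± 0.0766 (SE). Ifi44 was at 0 in all 3 controls of nApoE4 and at 1.99 ± 0.201 CPM (SD, n = 3) with nApoE4, at least 26.4-fold higher when set against 3 counts per control library, and with it at that bound the list median stayed 2.74. It rose by 6.50 with nApoE3. Cxcl10, which lies wholly inside the Art3 gene, was at 0 in every sample, and Mx1 and Mx2 are not analysed here.

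Between the fragments, 9 of the 22 antiviral genes were called lower and 2 higher, against 13.9% and 14.4% of all genes, with a median of −0.34 against 0.00252 over all genes. The 3 lowest were Samd9l (−2.32 ± 0.192, SE; edgeR adjusted p = 2.04e-06), the exonuclease Isg20 (−2.1 ± 0.258, adjusted p = 5.86e-05) and Oas3, a maker of 2-5A (−1.37 ± 0.111, adjusted p = 1.7e-06). The value of Ifit1bl1 lay below all of them. At the other end were Trim30a (1.30 ± 0.12, adjusted p = 5.31e-06) and Parp14 (0.71 ± 0.169, adjusted p = 0.00689), and Ifi44, with controls at 0, had an adjusted p of 0.0681. In untreated cells, 11 of the 19 genes tested were higher in the controls of nApoE3, as Ifit2 and Ifit3 were, and 2 were lower, against 34.4% and 34.9% of all genes.

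**Figure D5:**
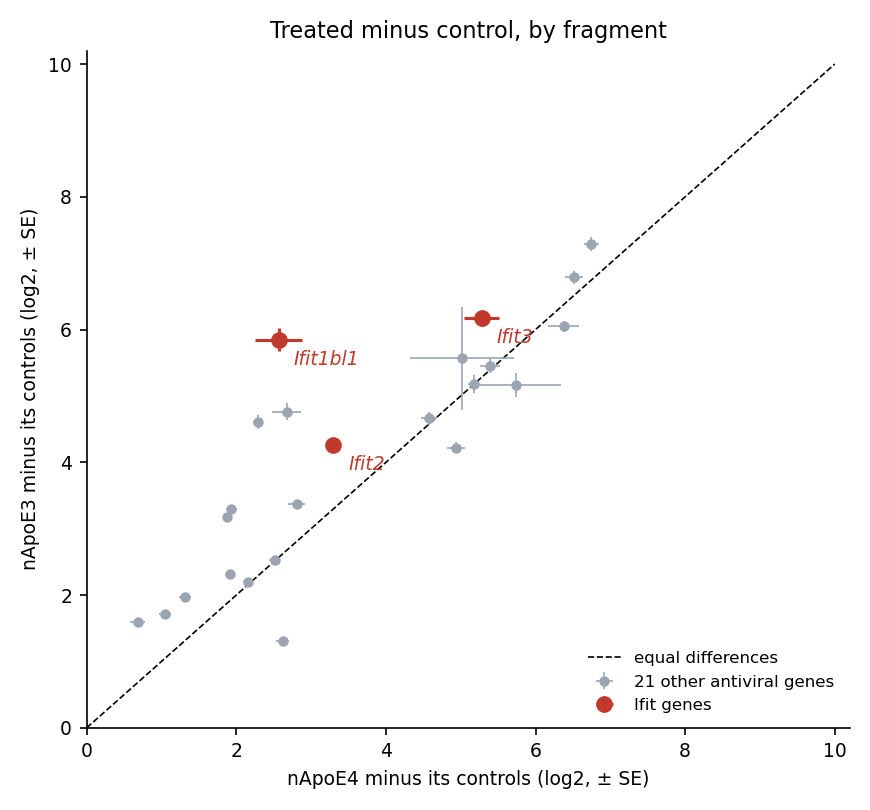
Fitted log2 difference between treated and control samples for nApoE4 (x axis) and nApoE3 (y axis), with standard errors, for the 3 Ifit genes with reads (red) and 21 other antiviral genes (grey), without Ifi44, which was at 0 in the controls of nApoE4. The dashed line marks equal differences. Ifit1bl1 (2.57 and 5.85) lies farthest above the line, and Ifit2 and Ifit3 lie nearer to it.

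Enzymes of the mRNA cap, the structure that Ifit1 reads, had small differences. Of 5 tested, 1 passed the threshold after nApoE4, Cmtr2, which fell by 0.20 (edgeR adjusted p = 0.0387), a call lost without the first control or without nApoE4 sample 2 or 3. Over all genes, 28.6% were called higher and 28.6% lower after nApoE4. In that comparison Fam103a1, Pcif1 and Rnmt were at −0.21, 0.14 and −0.09 (adjusted p = 0.098, 0.286 and 0.202). After nApoE3, Rnmt (0.26) and Rngtt (0.21) rose, and Fam103a1 and Pcif1 fell by 0.32 and 0.20. Over all genes, 33.1% were called higher and 34.6% lower after nApoE3. With 5 enzymes tested, their counts do not stand out from these shares. Cmtr1, which methylates the first transcribed nucleotide, was at 0 in every sample. Only 22.0% of its span lies under another counted gene, Ccdc167, so it is not wholly inside one. The cause of this 0 was not tested, and it is not read here as absence of the transcript.

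Of the 6 counted genes outside the family within 200 kb of a member, Lipa and Pank1 were tested after both fragments, and both fell. Falls were common, with 28.6% of all genes tested called lower after nApoE4 and 34.6% after nApoE3. The lysosomal lipase gene Lipa, 23.1 kb away, fell by 0.30 ± 0.057 with nApoE4 (log2, SE; edgeR adjusted p = 0.00149) and by 0.15 ± 0.0288 with nApoE3 (adjusted p = 0.000506). Pank1, which starts coenzyme A synthesis and lies 144 kb away, fell by 1.47 ± 0.0819 (adjusted p = 3.18e-07) and 1.09 ± 0.0466 (adjusted p = 6.31e-10). Slc16a12, 5.42 kb from the end of Ifit1bl1, had at most 19 counts in a sample and fell by 1.76 ± 0.614 with nApoE3 (adjusted p = 0.0233). It was not tested after nApoE4. Ch25h, Gm31417 and Mir107 had at most 4, 1 and 0 counts in a sample and were not tested.

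Likeness of pattern was measured as the root mean square difference in log2(CPM + 0.5), each gene centred on its mean over the 11 samples, among 15287 genes. Nearest to Ifit2 were Tnn (0.201), 6530402F18Rik (0.343) and Apol9a (0.414). Tnn went from 1.25 ± 0.276 to 17.2 ± 1.44 CPM with nApoE4 and from 3.73 ± 0.357 (SD, n = 3) to 77.1 ± 6.04 CPM (SD, n = 2) with nApoE3. Nearest to Ifit3 were Ptgs2, the inducible cyclooxygenase (0.31), Oasl2 (0.529) and Rtp4 (0.542).

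Nearest to Ifit1bl1 were Apol9a (0.512), Apol9b (0.517), which are close copies of each other, and the immunity-related GTPase gene Iigp1 (0.581). Iigp1 was at 0.511 ± 0.0425 CPM with nApoE4 (SD, n = 3) and 6.83 ± 0.365 CPM with nApoE3 (SD, n = 2), on 0 and 0.129 CPM in their controls. The Ifit genes were less like each other than like these genes. The values were 0.631 for Ifit2 and Ifit3, 0.706 for Ifit1bl1 and Ifit2 and 0.974 for Ifit1bl1 and Ifit3. Among the 15287 genes, the members still ranked from 6th (Ifit2 to Ifit3) to 38th (Ifit3 to Ifit1bl1) nearest to each other. With 11 samples in 4 groups, these values mostly compare group means, and the pseudocount of 0.5 narrows the range of genes that are low in controls.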

How the data were processed

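Raw gene counts of 11 BV2 samples, deposited by the authors as 1 table per sample, were used. Per the labels and the study's methods, single-end reads of 75 bases were trimmed with Trim Galore 0.5.0, checked with FastQC 0.11.8, aligned to GRCm38.p6 with HISAT2 2.1.0 and counted per gene with HTSeq 0.11.0. The annotation release, strand setting and overlap mode are not given in the sources used here. The 5 summary tallies per file were left out of library sizes: ambiguous reads were 3.24% to 3.56% and reads aligned to more than 1 place 11.67% to 13.18% of those tallied. Depth differed between experiments, and intervals and floors cover counting error only.

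Counts were analysed with edgeR 4.0.16 (R 4.3.3; filterByExpr, TMM, quasi-likelihood F test, Benjamini-Hochberg threshold 0.05). Treated samples were set against the controls of the same experiment, the fragments were compared through an interaction over 4 group means, and the control groups directly. The members and the gene lists were chosen with earlier results of these data known. Named genes were all annotated Ifit genes, all genes within 200 kb, every gene of the type I interferon signalling list (1 is not reported here), the 4 largest changes per fragment in each other list (mean of at least 1 CPM in a group), the 3 lowest and 3 highest antiviral interaction values, and the 3 genes most alike in pattern to each member. Same-numbered samples did not deviate together (correlations −0.337 to −0.000212 over 15287 genes), so replicate numbers were not taken as pairs. The fits were tested on simulated data. Alternatives were other size factors, DESeq2 1.42.0, other filters, thinning to 39732710 counts, a replicate block, a joint fit and leaving out each sample. RefSeq spans were found for 33061 of 36529 symbols, and RefSeq promoter windows and GENCODE M21 transcripts gave the sequences.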

Additional observations from a re-analysis of the deposited data

Results flagged for a closer look

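The response of 2 Ifit genes differed between the fragments by the interaction test over all 11 samples, each fragment measured against its own controls in its own experiment. For Ifit1bl1 the nApoE4 effect minus the nApoE3 effect was −3.27 (log2, edgeR adjusted p = 0.00136), and for Ifit2 it was −0.98 (edgeR adjusted p = 3.32e-06). Calls were common in this comparison, with 13.9% of all genes called lower and 14.4% higher. The effects of both fragments were known when the family was selected, so these p-values are not independent of that choice. Fragment and experiment cannot be told apart in these values. The Ifit1bl1 value ranged from −3.91 to −2.83 when 1 sample was left out. No group held 4 or more samples, so no test for a single outlying sample was applied.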

How the results depend on the processing

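No member difference reversed under the alternatives run, and of 72 member differences under settings other than leaving out a sample, 70 moved by less than the spread between replicates or stayed on the same side of the threshold. With a replicate block, which the numbers do not justify, the differences of Ifit1bl1 and Ifit3 after nApoE3 were 6.48 and 6.55. No nApoE3 sample has number 3, so the block takes the third control out of these differences. Without that control they were also 6.48 and 6.55. With the block, 2307 genes rather than 4331 differed between the fragments, and the cause of that was not tested. Leaving out 1 sample at a time, the nApoE4 differences ranged from 2.34 to 3.01 for Ifit1bl1 and from 4.98 to 5.82 for Ifit3, and the nApoE3 differences from 5.50 to 6.48 and from 5.92 to 6.55. For Ifit1bl1 the difference between the fragments ranged from −3.91 to −2.83 and that between the control groups from 0.30 to 1.41. The difference of Ifit3 between the fragments ranged from −1.27 to −0.35 and passed the threshold only without the third control of nApoE3. With at least 10 counts required in every sample, Ifit1bl1 and Ifit3 had no value wherever the controls of nApoE4 entered, since each had 9 counts in 1 of them. Low counts in untreated cells limit both genes, and Ifit2, with 396 or more counts in every sample, kept every value within 0.1 log2 of its main one when a sample was left out. With a replicate block or without the first nApoE4 control or nApoE4 sample 2 or 3, no cap enzyme was called lower after nApoE4, against 1, while 2 were without the third nApoE4 control, and with DESeq2 1 and not 2 fell after nApoE3. The share of member counts moved per kilobase of exon, to 62.8% for Ifit2 and 30.3% for Ifit3 with nApoE3.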
